A study of Mus musculus with 45 samples.

Results

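The genes described here encode the enzymes that phosphorylate choline and ethanolamine and build phosphatidylcholine, the main phospholipid of hepatocyte membranes, bile and lipoproteins. The members were chosen by gene symbol, from a list drawn up with the APAP against vehicle results of these same arrays in view, and comprised 8 genes: Chka, Chkb, Pcyt1a, Cept1, Chpt1, Pemt, Etnk1 and Etnk2. Of these, 7 had a value among the 18180 genes of the table used, and Chkb was not analysed here. Because the APAP response took part in the choice, and the vehicle livers are 1 side of that contrast, all values of the members are given as a description. The call rule used below includes an adjusted p, and for a member a call is likewise a description and not a test result. Adjusted p-values are given for the other genes of the pathway. The lists of these genes were also drawn up with earlier results of these arrays known, so their p-values too are a description.

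The data were whole-liver gene expression profiles from 45 male C57Bl/6J mice aged 8 weeks, all fasted for 16 h before dosing. APAP mice received 300 mg/kg acetaminophen by gavage in 1% hydroxyethylcellulose and were killed after 3, 6, 9 or 24 h. Vehicle mice received 1% hydroxyethylcellulose alone and were killed at the same times, and untreated mice were killed at 0 h, with 5 mice in each of the 9 groups. According to the study's account, food was returned after dosing. Vehicle, refeeding, time since fasting and time of day therefore cannot be told apart in the vehicle time course. The same vehicle livers are the reference for APAP, so an APAP difference can reflect a change in the vehicle livers. Acetaminophen is converted in hepatocytes around the central vein to a reactive metabolite that depletes glutathione and causes necrosis, and each value averages all cells of a liver piece, so that fewer cells of a type and less RNA per cell cannot be told apart.

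In the cytidine diphosphate-choline (Kennedy) pathway, choline kinase (Chka, Chkb) phosphorylates choline, Pcyt1a couples phosphocholine to cytidine triphosphate in what is usually the rate-limiting step, and the transferases Chpt1 and Cept1 join it to diacylglycerol. Etnk1 and Etnk2 phosphorylate ethanolamine in the parallel branch that makes phosphatidylethanolamine. In hepatocytes Pemt methylates phosphatidylethanolamine to phosphatidylcholine with S-adenosylmethionine as methyl donor, a route largely particular to the liver.

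Expression is given as the normalized log2 intensity of the array, on which a difference of 1 is a 2-fold change, and levels of different genes were not compared because their probes differ. All differences, standard errors (SE) and adjusted p-values came from limma, with Benjamini-Hochberg adjustment over 18180 genes. A gene was called when the adjusted p was under 0.05 and the change was at least 1.5-fold, the rule of the study's methods. Array medians lay between 7.59 and 7.66, and arrays within a group correlated at 0.980 to 0.998. Replicates 1 and 3 of the APAP 24 h group stood apart, with scores of -47.3 and -41.65 on the second principal component where the other 3 of that group had -24.56 to -22.19. Of 8 hepatocyte markers, among them albumin, 1 was called in the APAP livers, higher at 3 h. Several of these markers lay near the highest value of the arrays (15.04), with albumin group means of 14.97 to 15.02. A fall there might not have shown. Pericentral hepatocyte markers called lower numbered 6 of 10 at each of the 4 times. The mean log2 level of the pericentral list lay between 9.52 and 10.06 in the 5 APAP 24 h livers and was at least 11.22 in every vehicle 24 h liver. The fall was not shared evenly by the list. Cyp2e1 (14.12 beside 14.50 in vehicle at 24 h), Cyp27a1 (12.49, 13.00) and Axin2 (7.14, 7.46) were not called at any time. Of 7 measured periportal markers, 2 were called higher at 3 h and 2 lower at 24 h. Those called at 3 h were Pck1 and Sds, and Pck1 was also the hepatocyte marker called at that time. Pck1 was 13.04 in untreated, 11.75 in vehicle 3 h and 13.19 in APAP 3 h livers. The Sds means were 13.07, 12.16 and 13.15, so in both genes the vehicle level was the one apart from untreated. Macrophage and Kupffer cell markers called higher numbered 0, 1, 4 and 5 of 12 at 3, 6, 9 and 24 h, and 0 were called lower. Among those not called at 24 h, Clec4f (10.05 beside 10.64 in vehicle), Timd4 (7.53, 7.86) and Vsig4 (10.13, 10.40) had lower means, and Cd5l (11.9, 11.4) a higher one. Neutrophil markers called higher numbered 2, 0, 2 and 2 of 6. The part of these markers in the results below was not tested.

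Chka was the member whose level differed most between groups. Its 9 group means spanned 3.97 log2 units, and 0.127% of all genes had a wider span, against a median span of 0.31 over all genes. The start region of Chka and that of Chpt1, the one other member that met the call rule against vehicle, are shown because these are the members with the largest APAP differences and they moved in opposite directions. Both windows run from 250 bases before to 50 bases after a RefSeq transcription start of build GRCm38.p6, 5′ to 3′ on the gene's strand, at chr19:3851523-3851822 (plus strand) for Chka and chr10:88503921-88504220 (minus strand) for Chpt1. Capitals mark the CCAAT box.
Chka: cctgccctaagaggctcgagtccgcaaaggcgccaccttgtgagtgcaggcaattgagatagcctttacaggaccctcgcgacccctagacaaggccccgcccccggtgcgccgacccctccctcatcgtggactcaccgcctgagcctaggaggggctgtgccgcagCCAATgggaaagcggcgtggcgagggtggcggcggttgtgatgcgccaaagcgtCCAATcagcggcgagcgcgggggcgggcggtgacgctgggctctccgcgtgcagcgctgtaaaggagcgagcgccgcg
Chpt1: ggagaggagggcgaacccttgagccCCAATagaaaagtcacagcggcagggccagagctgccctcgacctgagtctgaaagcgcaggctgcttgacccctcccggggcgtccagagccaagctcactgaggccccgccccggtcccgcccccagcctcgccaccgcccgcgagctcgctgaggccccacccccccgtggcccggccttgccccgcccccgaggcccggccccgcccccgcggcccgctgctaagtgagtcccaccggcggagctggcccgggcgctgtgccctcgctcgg
GC content was 68.7% in the Chka window and 75.3% in the Chpt1 window, against a median of 52.7% over 32851 windows. In the windows of the other members it ran from 27.3% (1 of Cept1) to 73.7% (Etnk1). On both strands, 6 motifs were searched. No match in any of the 13 windows of the 8 members was found for AP-1 (TGACTCA), CRE (TGACGTCA), E-box (CACGTG) or C/EBP-ATF (TGATGCAA). Of all windows, 5.2%, 1.79%, 7.15% and 0.895% held these motifs. The CCAAT box (CCAAT, in 37.4% of all windows) and the GC box (GGGCGG, in 35.7%), added after the sequences were seen, were present in both windows. They were not particular to these genes. Windows of Chkb, Cept1 and Pemt also held a CCAAT box, and windows of Chkb, Pcyt1a, Cept1, Etnk1 and Etnk2 a GC box. In Chka the CCAAT boxes began at positions -82 and -28 from the start and 3 GC boxes were found, of which 2 overlapped, whereas in Chpt1 the CCAAT box began at -225 and 5 GC boxes lay on the opposite strand. A match is a description of the letters and not a bound site.

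Without APAP, Chka (Entrez Gene 12660) was lower at 6 and 9 h after gavage and higher at 24 h than in untreated livers. Untreated livers had log2 levels of 9.26, 9.26, 9.29, 9.54 and 9.75 (9.42 ± 0.22, SD, n = 5), and vehicle 3 h livers 9.34, 9.49, 9.54, 9.65 and 10.01. Vehicle 6 h livers had 8.40, 8.50, 8.76, 8.95 and 9.27. Vehicle 9 h livers had 8.46, 8.54, 8.60, 8.67 and 9.22, and vehicle 24 h livers 9.78, 10.01, 10.06, 10.12 and 10.38. The 9 h livers all lay below and the 24 h livers all above the untreated range, while the 3 h and 6 h livers overlapped it. Against untreated livers, the difference was 0.18 (SE 0.12) at 3 h, -0.65 (SE 0.15) at 6 h, -0.72 (SE 0.14) at 9 h and 0.65 (SE 0.12), or 1.57-fold, at 24 h. The last 3 met the call rule. The 3 h value became 0.09 without vehicle 3 h replicate 1. The call at 6 h was lost without vehicle 6 h replicate 1 (-0.58), vehicle 6 h replicate 5 (-0.55) or untreated replicate 2 (-0.56), and the call at 24 h without vehicle 24 h replicate 1 (0.57).

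These comparisons share the untreated mice, so the change was also measured between vehicle groups. The 2 comparisons between vehicle groups in turn share the vehicle 9 h mice. Vehicle 9 h less vehicle 3 h was -0.91 (SE 0.15), with no overlap between the 2 groups. Vehicle 24 h less vehicle 9 h was 1.37 (SE 0.14), a 2.59-fold change, and 0.182% of all genes changed more in that interval. Chka was the only one of the 7 members to meet the call rule in either interval, where 1.4% and 2.04% of all genes met it.

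**Figure D1:**
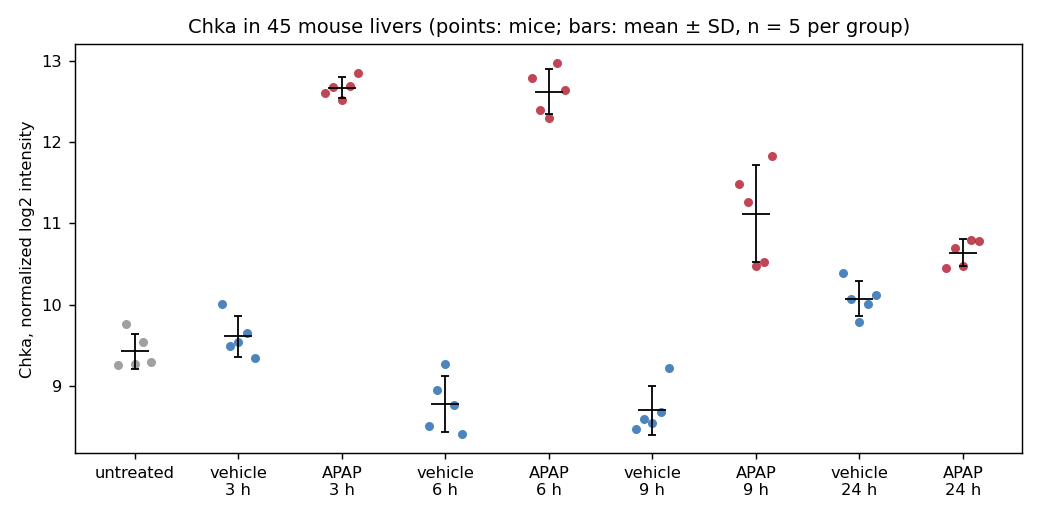
Chka log2 intensity (vertical axis) in each of the 45 livers, by group (horizontal axis); points are mice, and black bars are the mean ± SD of 5 mice. The APAP 3 h and 6 h livers lie between 12.30 and 12.98, above every other liver, and the vehicle 6 h and 9 h groups have the lowest means (8.77 and 8.70).

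After APAP, Chka was at its highest in the first 6 h and came back towards the vehicle level by 24 h. APAP 3 h livers had log2 levels of 12.52, 12.61, 12.68, 12.69 and 12.86 (12.67 ± 0.12, SD, n = 5). APAP 6 h livers had 12.30, 12.39, 12.64, 12.79 and 12.98 (12.62 ± 0.28). At both times every APAP liver lay far above the highest vehicle liver, which was at 10.01 at 3 h and 9.27 at 6 h. APAP 9 h livers had 10.48, 10.53, 11.27, 11.48 and 11.83 (11.12 ± 0.60), and APAP 24 h livers 10.45, 10.48, 10.70, 10.78 and 10.79 (10.64 ± 0.16). The 9 h livers were the most spread, with a pair of livers at 10.48 and 10.53 close to the 24 h level, and at neither time did the APAP and vehicle livers overlap.

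The difference from vehicle was 3.06, 3.84 and 2.42 at 3, 6 and 9 h (SE 0.11, 0.17 and 0.25), or 8.37-fold, 14.4-fold and 5.35-fold. In size it ranked 19, 10 and 39 among the 18180 genes at these times. At 24 h the difference was 0.57 (SE 0.11), or 1.48-fold, just outside the fold limit, and it passed that limit when APAP 24 h replicate 1 (0.61), APAP 24 h replicate 3 (0.61), both of these (0.68) or vehicle 24 h replicate 1 (0.65) was left out. The 24 h difference less that at 3 h was -2.50, and less that at 9 h it was -1.85 (SE 0.26 for both). From 9 to 24 h the larger part of this narrowing came from the vehicle side, which stood 1.37 higher, while the APAP mean stood 0.48 lower. From 3 to 6 h the difference grew as the vehicle mean went from 9.61 to 8.77, while the APAP mean went from 12.67 to 12.62. Against the untreated livers the APAP levels were 3.25, 3.20, 1.70 and 1.22 higher at 3, 6, 9 and 24 h (SE 0.19 each).

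In order of level, the APAP groups came first, from 3 h (12.67) through 6 h (12.62) and 9 h (11.12) to 24 h (10.64). Then came vehicle 24 h (10.07), vehicle 3 h (9.61), untreated (9.42), vehicle 6 h (8.77) and vehicle 9 h (8.70). Of neighbouring groups in this order, APAP 6 h and 9 h did not overlap, nor did APAP 24 h and vehicle 24 h. All other neighbours overlapped.

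As a description over the 45 arrays, which share the 9 treatments, the genes whose log2 levels correlated most with Chka were Zbtb21 (Pearson r = 0.95), a zinc finger protein, Desi2 (0.93), Chac1 (0.92), a glutathione-degrading enzyme of the stress response, the transcription factor Myc (0.91) and the stress cytokine Gdf15 (0.91). When each array was expressed as its deviation from its own group mean, the genes most like Chka were Arntl (0.71), which encodes the clock activator BMAL1, the nuclear receptor cofactor Nrip1 (0.70), Stra6l (0.69), Srsf11 (0.63) and Mast4 (0.62). No gene was in both lists, each of which was cut at 5 genes. In the deviations, Zbtb21, Desi2, Chac1, Myc and Gdf15 had r = 0.53, 0.45, -0.04, 0.40 and 0.05. Over the 45 arrays, Arntl, Nrip1, Stra6l, Srsf11 and Mast4 had r = 0.63, 0.90, -0.03, 0.79 and 0.64.

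The second step and the last step of the pathway did not share the Chka pattern. Pcyt1a (Entrez Gene 13026) had group means between 9.33 (APAP 24 h) and 9.67 (vehicle 6 h), with single livers between 9.13 and 9.78. In vehicle livers it differed from untreated by 0.07 to 0.19, the largest difference being 1.14-fold at 6 h. Its APAP minus vehicle differences were -0.03, -0.11, -0.10 and -0.22 at 3, 6, 9 and 24 h (SE 0.08, 0.06, 0.07 and 0.06), none of 1.5-fold. Only at 24 h did the 5 APAP and 5 vehicle livers not overlap.

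Cept1 (Entrez Gene 99712), which can transfer either choline or ethanolamine headgroups, had the narrowest range, with group means between 11.73 and 11.96 and a pooled SD within groups of 0.08. Vehicle livers were 0.14 lower than untreated at 9 h, and the other differences were between -0.10 and 0.01. Its APAP minus vehicle differences were -0.18, -0.12, 0.05 and -0.05 in the order of the times. In 65.5% of all genes the group means spanned a wider range than in Cept1, and in 44.7% a wider range than in Pcyt1a.

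Chpt1 (Entrez Gene 212862), which completes phosphatidylcholine at the Golgi, was lower at later times in both arms and lower with APAP at each time. Untreated livers had log2 levels of 11.36, 11.41, 11.41, 11.57 and 11.57. Vehicle livers lay between 11.28 and 11.46 after 3 h, 11.07 and 11.29 after 6 h, and 10.99 and 11.42 after 9 h. At 24 h they had 10.77, 10.89, 10.96, 10.96 and 11.02. The 24 h vehicle livers all lay below the untreated range. Against untreated, vehicle livers differed by -0.12, -0.25, -0.25 and -0.55 at 3, 6, 9 and 24 h, with SE 0.06 to 0.08, and the last, a 1.46-fold decrease, was short of the fold limit. From 9 to 24 h it was 0.30 lower (SE 0.08).

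APAP livers had Chpt1 levels of 10.91 to 11.16 at 3 h and 10.75 to 11.16 at 6 h. At 9 h they had 10.51, 10.55, 10.59, 10.70 and 10.81, and at 24 h 10.03, 10.26, 10.33, 10.42 and 10.53, all below the lowest vehicle liver of their time. APAP minus vehicle was -0.31 (SE 0.06), -0.27 (0.08), -0.59 (0.08) and -0.61 (0.09) at 3, 6, 9 and 24 h. The last 2 met the call rule and lay just inside it, at 1.5-fold and 1.52-fold. At 9 h the call was lost without any one of APAP 9 h replicates 1, 3 and 4 (-0.57, -0.55 and -0.57) or vehicle 9 h replicates 2, 3 and 4 (-0.54, -0.56 and -0.58), and with re-centred arrays (-0.58). At 24 h it was lost without APAP 24 h replicate 1 (-0.53), APAP 24 h replicates 1 and 3 (-0.52) or vehicle 24 h replicate 2 (-0.58), and with array weights (-0.50). Against the untreated livers, APAP 24 h livers were 1.15 lower (SE 0.08).

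Pemt (Entrez Gene 18618), the phosphatidylethanolamine methyltransferase, was higher at each later time in vehicle livers. Untreated livers had log2 levels of 12.43, 12.45, 12.45, 12.49 and 12.53, vehicle 3 h livers 12.51 to 12.71 and vehicle 6 h livers 12.64 to 12.76. Vehicle 9 h livers had 12.72 to 12.92, and vehicle 24 h livers 13.10, 13.11, 13.11, 13.16 and 13.18. From 6 h on, no vehicle liver overlapped the untreated range, and every 24 h liver was above every 9 h liver. The differences from untreated were 0.11, 0.23, 0.34 and 0.66 at 3, 6, 9 and 24 h, with SE 0.04 to 0.05, and the last, 1.59-fold, met the call rule. Between vehicle groups Pemt was 0.23 higher at 9 h than at 3 h and 0.33 higher at 24 h than at 9 h, both under 1.5-fold.

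In APAP livers the level of Pemt stayed near that of untreated livers through 9 h. APAP 3 h livers had 12.21, 12.40, 12.41, 12.43 and 12.46, APAP 6 h livers 12.15 to 12.62 and APAP 9 h livers 12.30 to 12.59. APAP 24 h livers had 12.56, 12.87, 13.04, 13.09 and 13.15. At 3, 6 and 9 h all APAP livers lay below all vehicle livers of their time, whereas at 24 h the groups overlapped and the lowest APAP liver was replicate 1, one of the pair that stood apart. APAP minus vehicle was -0.19 (SE 0.06), -0.33 (0.08), -0.33 (0.06) and -0.19 (0.10), none of 1.5-fold. The 24 h value became -0.10 without APAP 24 h replicate 1, or without replicates 1 and 3, and -0.09 with array weights. Against untreated livers the APAP groups differed by -0.09, -0.10, 0.01 and 0.47 (SE 0.07 each).

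Of the ethanolamine kinases, Etnk1 (Entrez Gene 75320) was higher in vehicle than in untreated livers. Untreated livers had log2 levels of 7.96, 7.98, 8.08, 8.10 and 8.15, and vehicle livers lay between 8.06 and 8.71 after 3 h. Their ranges were 8.36 to 8.53, 8.32 to 8.55 and 8.25 to 8.47 in the 6, 9 and 24 h groups. From 6 h on the vehicle livers all lay above the untreated range. The differences were 0.25, 0.37, 0.42 and 0.34 at 3, 6, 9 and 24 h, with SE 0.05 to 0.10, and none reached 1.5-fold. The 3 h value became 0.15 without vehicle 3 h replicate 3. APAP livers were more variable, most of all at 6 h, where they had 7.58, 8.01, 8.07, 8.80 and 9.05 (SD 0.60) and reached both below and above the vehicle range. APAP minus vehicle was 0.32 (SE 0.15), -0.12 (0.23), 0.27 (0.16) and 0.34 (0.09), and only at 24 h did the groups not overlap. The value at 6 h became 0.06 without APAP 6 h replicate 5, and that at 9 h became 0.09 without APAP 9 h replicate 2, whose level was 9.43 beside 8.39 to 8.71 in the others.

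Etnk2 (Entrez Gene 214253), the form abundant in liver, differed from untreated by -0.20 to 0.12 in vehicle livers. Relative to vehicle, it was higher with APAP early and lower late. Vehicle 3 h livers had log2 levels of 11.34, 11.46, 11.62, 11.71 and 11.78 and APAP 3 h livers 11.62, 11.81, 11.98, 11.99 and 12.19. APAP 6 h livers lay between 11.97 and 12.37, beside vehicle livers at 11.63 to 12.12. In both cases the groups overlapped. APAP 9 h livers had 11.27, 11.35, 11.40, 11.61 and 11.63, beside vehicle livers at 11.46 to 12.11, and APAP 24 h livers had 10.65, 11.42, 11.52, 11.54 and 11.62, all below the vehicle livers at 11.75 to 11.85. APAP minus vehicle was 0.34 (SE 0.11), 0.23 (0.11), -0.39 (0.11) and -0.45 (0.16), none of 1.5-fold. The differences at 6 and 24 h did not meet the adjusted p of the call rule either. Against untreated livers the APAP groups differed by 0.13, 0.35, -0.34 and -0.43 (SE 0.13 each), and the vehicle 3 h livers by -0.20. The 24 h value became -0.27 without APAP 24 h replicate 1, the liver at 10.65, and -0.24 without replicates 1 and 3.

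**Figure D2:**
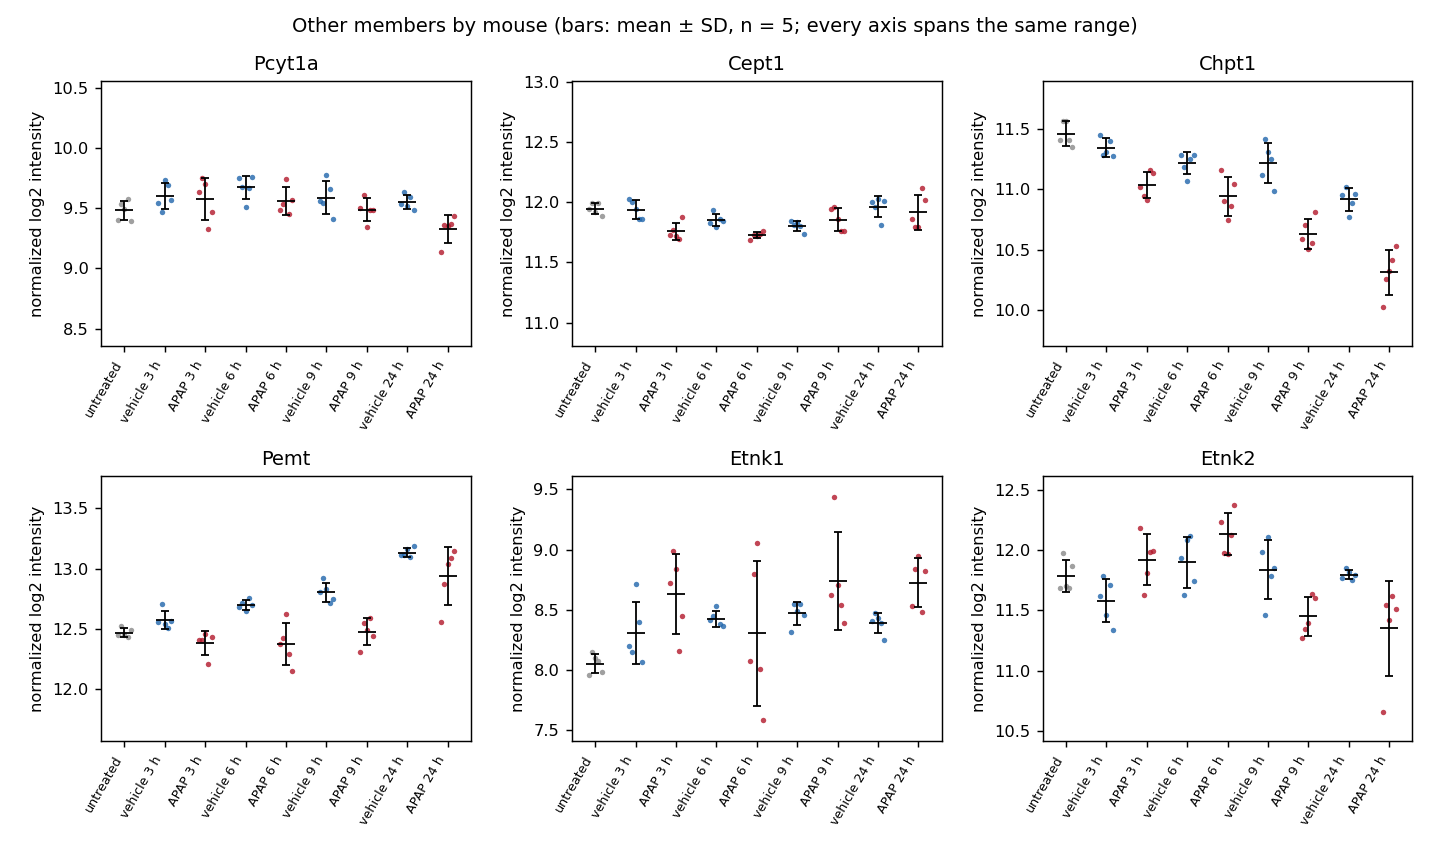
Log2 intensity (vertical axes, each spanning the same range) of the 6 other measured members in each liver, by group (horizontal axes); points are mice, and black bars are the mean ± SD of 5 mice. Chpt1 descends to 10.31 in APAP 24 h livers, Pemt climbs to 13.13 in vehicle 24 h livers, and Pcyt1a and Cept1 stay nearly level.

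Over the vehicle time course, 0, 1, 1 and 2 of the 7 members met the call rule against untreated livers at 3, 6, 9 and 24 h. These were Chka at 6 and 9 h, both lower, and Chka and Pemt at 24 h, both higher. Of all genes, 2%, 2.89%, 3.87% and 4.4% met it in these comparisons, and nothing is read from the members' counts. At 24 h the median difference of the members was 0.07, and that of all genes was 0.00.

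**Figure D3:**
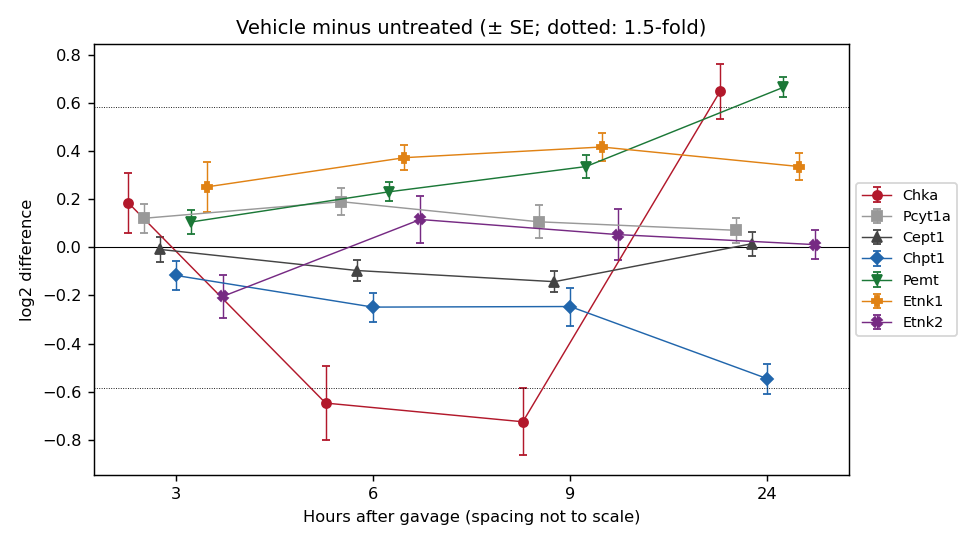
Log2 difference between vehicle and untreated livers (vertical axis) for the 7 measured members at 3, 6, 9 and 24 h (horizontal axis); error bars are the SE of the fit, and dotted lines mark 1.5-fold. Chka lies below the lower line at 6 and 9 h and, with Pemt, above the upper line at 24 h, where Chpt1 is the lowest at -0.55.

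Between APAP and vehicle, 1, 1, 2 and 1 of the 7 members met the call rule at 3, 6, 9 and 24 h, namely Chka at 3, 6 and 9 h and Chpt1 at 9 and 24 h. The share of all genes that met it was 4.03%, 5.32%, 4.54% and 4.68%. It was met upwards by 1.68%, 2.29%, 2.49% and 2.86% of all genes and downwards by 2.34%, 3.03%, 2.05% and 1.82%. Since this contrast was in view when the members were chosen, nothing is read from these counts. The median member difference was -0.03, -0.12, -0.10 and -0.19, beside medians over all genes of 0.02, 0.01, -0.03 and -0.05.

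**Figure D4:**
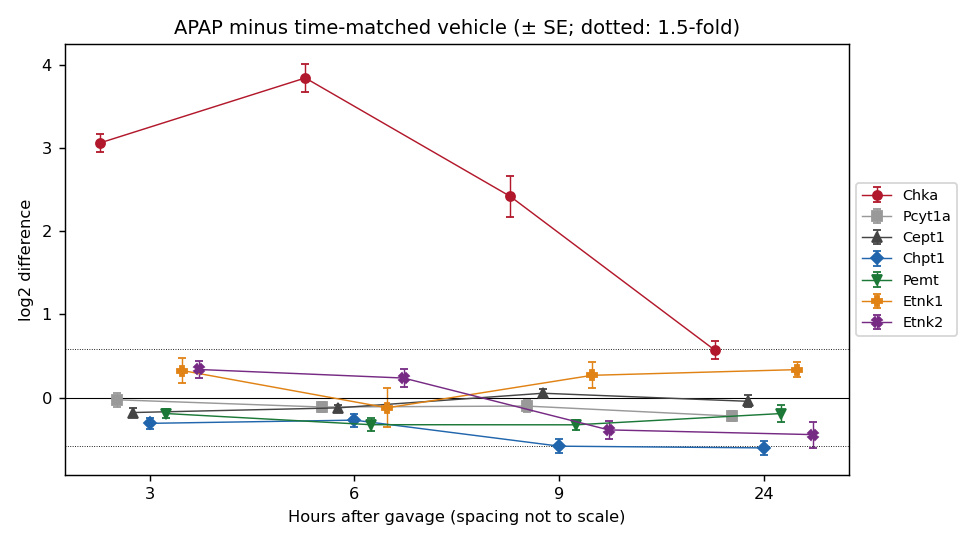
Log2 difference between APAP and time-matched vehicle livers (vertical axis) for the 7 measured members at 3, 6, 9 and 24 h (horizontal axis); error bars are the SE of the fit, and dotted lines mark 1.5-fold. Chka runs from 3.06 through 3.84 and 2.42 to 0.57, and the other 6 members stay between -0.61 and 0.34.

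The rest of the pathway was followed through 86 other genes, of which 81 were measured. Between APAP and vehicle, 6, 6, 10 and 10 of the 81 were called at 3, 6, 9 and 24 h, or 7.41%, 7.41%, 12.3% and 12.3%, beside 4.03%, 5.32%, 4.54% and 4.68% of all genes. Because the lists were drawn up with earlier results of these arrays known, the shares are no independent evidence about the pathway. Those called higher numbered 4, 3, 5 and 3 at these times, against 2, 3, 5 and 7 called lower. The median difference of the 81 was 0.02, 0.02, -0.02 and -0.09, close to that of all genes. Rises and falls given below are relative to vehicle livers of the same time. Between vehicle and untreated livers, 6.17%, 7.41%, 11.1% and 18.5% of the 81 were called, beside 2%, 2.89%, 3.87% and 4.4% of all genes.

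Diacylglycerol is the second substrate of Chpt1 and Cept1. Genes that supply it held the largest increases over vehicle at 3, 6 and 9 h but not at 24 h. Called higher were 3, 2, 3 and 1 of the 18 genes, and called lower 0, 1, 1 and 1. In vehicle against untreated livers, 0, 0, 0 and 2 of the 18 were called higher and 3, 3, 4 and 3 lower. Whether the APAP increases were rises above untreated levels was not tested. Lpin1, a phosphatidate phosphatase that makes diacylglycerol, was 9.09 ± 0.43 in vehicle and 11.82 ± 0.81 in APAP livers (SD, n = 5) at 3 h and rose by 2.73 (SE 0.33, adjusted p = 9.08e-05). Its difference was 1.24 at 6 h (SE 0.53, adjusted p = 0.109), which was called in the model over all 45 arrays. Its relative Lpin2 rose by 2.23, 1.46 and 0.75 at 3, 6 and 9 h (adjusted p = 1.01e-07, 0.00259 and 0.00729). By 24 h the differences were -0.31 for Lpin1 and -0.25 for Lpin2 (adjusted p = 0.572 and 0.283).

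Gpat3, which acylates glycerol 3-phosphate in the first step towards diacylglycerol, rose by 1.22, 1.98 and 1.21 at 3, 6 and 9 h (adjusted p = 8.12e-05, 0.000393 and 4.17e-05). Plpp2, a lipid phosphate phosphatase, rose later. Its 9 h rise was 0.85 (adjusted p = 0.000213) and its 24 h rise 0.98 (adjusted p = 0.000693). Gpat2, a mitochondrial acyltransferase, fell by 0.83, 0.72 and 0.82 at 6, 9 and 24 h (adjusted p = 0.00122, 0.000200 and 0.0261). Its 24 h call was lost without APAP replicate 3 or vehicle replicate 2, 3 or 4 (-0.82 to -0.75, adjusted p = 0.0501 to 0.0643), without APAP replicates 1 and 3 (-0.44) and with array weights (-0.56), and it was among the dimmest 25% of genes. Gpam, the main mitochondrial acyltransferase of liver, was not called, with differences of -0.02, -0.05, -0.49 and -0.57, although at 24 h it was called lower without any one of APAP replicates 2, 3 and 5 or vehicle replicates 3 and 5 (-0.67 to -0.60). Dgat2, which turns diacylglycerol into triacylglycerol, was not called (between -0.09 and 0.04).

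In the methyl donor cycle, which feeds Pemt with S-adenosylmethionine and recycles choline-derived methyl groups, 0 of 17 genes were called higher at any time and 1, 1, 2 and 3 were called lower. Gamt, which uses S-adenosylmethionine to make creatine, fell by 0.79, 0.78, 0.91 and 0.90 at 3, 6, 9 and 24 h (SE 0.13 to 0.21, adjusted p = 0.00211, 0.00125, 0.00588 and 0.00540), with no overlap between groups at any time. Bhmt2 fell by 0.64 at 9 h (adjusted p = 0.00119), and its call was lost without APAP 9 h replicate 1 (-0.53). At 24 h Cth, which makes cysteine from cystathionine, fell by 0.93 (adjusted p = 0.00709) and Sardh, the sarcosine dehydrogenase, by 0.76 (adjusted p = 0.00348). Mat1a, which makes S-adenosylmethionine in hepatocytes, and Gnmt, which consumes it, were not called at any time, with 24 h differences of -0.23 and -0.38.

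Among the genes of choline uptake and activation, the choline transporter-like Slc44a3 fell by 0.61 at 9 h (adjusted p = 0.000589), a call lost without APAP 9 h replicate 1 or 5 (both -0.56) or vehicle 9 h replicate 3 (-0.58), and with array weights (-0.58). Flvcr2, a choline transporter, rose by 0.69 at 24 h (adjusted p = 0.0158), but its call was lost without vehicle 24 h replicate 1 (0.57). The broadly expressed Slc44a1 and Slc44a2 were not called.

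In the synthesis of phosphatidylethanolamine and phosphatidylserine, 1 of 6 genes was called, at 24 h. Etnppl, which breaks down phosphoethanolamine, the product of the ethanolamine kinases, fell by 1.86 (SE 0.48, adjusted p = 0.0169), from 12.53 ± 0.09 in vehicle to 10.67 ± 1.25 in APAP livers (SD, n = 5). At 3 h its difference was 0.54 (adjusted p = 0.0282), which passed the fold limit without APAP 3 h replicate 2 (0.61) or vehicle 3 h replicate 1 or 4 (0.64 and 0.59). Pisd and Ptdss1, which make phosphatidylethanolamine and phosphatidylserine, differed by -0.16 to 0.15 and were not called.

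Of 22 genes of remodelling and breakdown, 1 was called at each time, always higher. Gpcpd1, which releases glycerol 3-phosphate from glycerophosphocholine, rose by 0.62 (adjusted p = 0.000360) at 3 h, then by 0.85 at 6 h (adjusted p = 0.00406), and its 3 h call was lost without APAP 3 h replicate 2 or vehicle 3 h replicate 1 or 4 (all 0.58). Its 24 h difference was -0.56 (adjusted p = 0.0235), and it was called lower without any one of APAP replicates 2 and 3 or vehicle replicates 1, 2 and 4, at -0.65 to -0.59. Sgms2, a sphingomyelin synthase that uses phosphatidylcholine, rose by 0.62 at 9 h (adjusted p = 0.00737), a call lost without APAP 9 h replicate 1 (0.52) or 5 (0.53), and with array weights (0.53). Pla2g12a, a secreted phospholipase, rose by 1.13 at 24 h (adjusted p = 0.000444).

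Of 9 genes of transfer and export, 1 rose at 9 h and 2 fell at 24 h. Apob, the structural protein of very low density lipoprotein, rose by 0.61 at 9 h (adjusted p = 0.000892), a call lost without APAP 9 h replicate 1 (0.57) or vehicle 9 h replicate 2 (0.58) or 5 (0.55), and with array weights (0.58). At 24 h Abcb4, which moves phosphatidylcholine into bile, fell by 0.63 (adjusted p = 0.00102), a call lost without vehicle 24 h replicate 3 (-0.58) or APAP 24 h replicates 1 and 3 (-0.57), and with array weights (-0.58). Pltp, the phospholipid transfer protein, fell by 0.66 at 24 h (adjusted p = 0.00490), and without APAP 24 h replicate 4 the value was -0.57. Stard10 and Lcat were not called, with differences of -0.12 to 0.04.

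**Figure D5:**
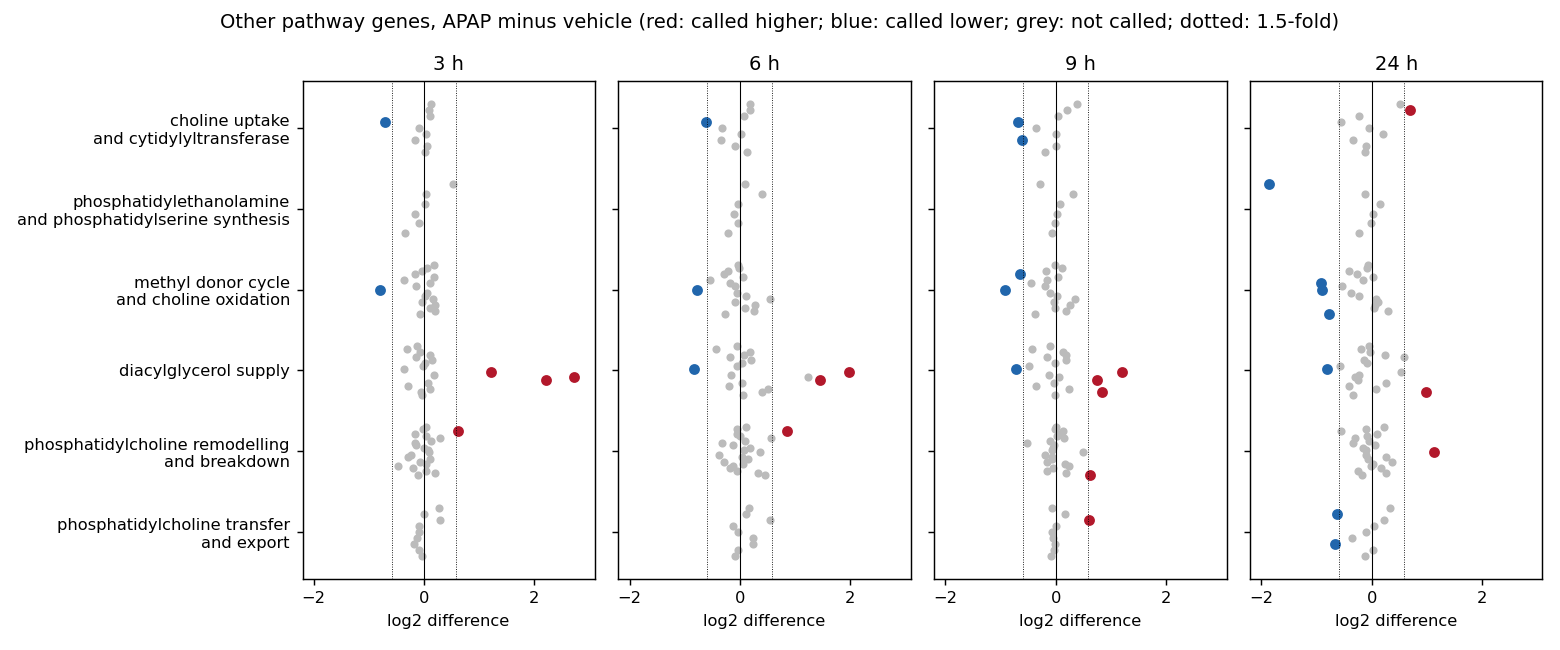
Log2 difference between APAP and vehicle livers (horizontal axes) for the 81 other pathway genes at 3, 6, 9 and 24 h (panels), grouped by function (vertical axis); each point is a gene, coloured where it was called higher (red) or lower (blue), and dotted lines mark 1.5-fold. The largest increases are in diacylglycerol supply at 3 and 6 h, up to 2.73, and 7 of the 10 genes called at 24 h are lower.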

How the data were processed

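RNA of 45 mouse livers was hybridized by the authors to Affymetrix mouse genome arrays, 1 array per mouse. The deposited values were log2 intensities that the authors had normalized with RMA (affy 1.64.0 in R 3.6.1) using the BrainArray probe set definition, version 24, which gives 1 value per Entrez gene. RMA subtracts background and forces the arrays to 1 distribution, so a shift common to all genes would not be seen, and the number of arrays limits the precision. The genome build was not given in the sources used here. Gene symbols came from a second deposited sheet, of which the 45 value columns were not used because their headings are not tied to a mouse.

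Groups were compared pairwise with limma 3.58.1 in R 4.3.3 on the deposited log2 values (lmFit and eBayes on 10 arrays, no filter, no block), with Benjamini-Hochberg adjustment over all genes. The labels do not say whether mice of a group shared a cage or litter, so their independence cannot be checked. The p-values set a group difference against the spread between these mice. The scripts were tested on simulated data. The members and gene lists were chosen with earlier results of these data known, so no p-value is given for a member. The adjusted p-values of the other pathway genes carry the same limit and are given as a description. From each pathway list, up to 4 called genes with the largest change and up to 2 others with the highest level were named. Gpat2, outside this rule, was named after its values were seen. Alternatives were a stricter adjusted p, 1 model over all arrays, trended and robust moderation, array weights, removal of the dimmest 25% of genes, re-centring of arrays, a test against a 1.5-fold change, a replicate block, and leaving out single arrays. Of the 86 other pathway genes, 5 (Slc44a5, Pcyt2, Ahcy, Bhmt and Mtrr) were not analysed here, nor was Chkb. The result of 1 measured pathway gene is not reported here, although the gene is included in the counts over all pathway genes. Promoter sequences were those of RefSeq (GRCm38.p6), in which all 8 members matched.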

Additional observations from a re-analysis of the deposited data

Results flagged for a closer look

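Single livers far from the other 4 of their group were found in 4 of 63 groups of member values, and chance gives such a gap in about 1 in 20 groups. The Chka log2 level of vehicle 9 h replicate 5 was 9.22, beside 8.46 to 8.67 in the others. The Pemt level was 12.7 in vehicle 3 h replicate 2 (others 12.51 to 12.56) and 12.21 in APAP 3 h replicate 4 (others 12.41 to 12.46). The Etnk2 level of APAP 24 h replicate 1 was 10.65 (others 11.42 to 11.62).

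Opposite directions at different times, with every APAP liver on one side of the vehicle mean at one time and on the other side at another, were found for 5 of 37 genes. These differences between times were not tested. For Etnk2, which was above vehicle at 3 and 6 h and below at 9 and 24 h, the difference changed by -0.73 from 3 to 9 h, -0.78 from 3 to 24 h, -0.62 from 6 to 9 h and -0.68 from 6 to 24 h. Etnppl changed by -2.40 from 3 to 24 h, and Gpcpd1 by -1.19 from 3 to 24 h and -1.42 from 6 to 24 h. The smaller changes were -0.34 for Mat1a from 6 to 24 h, and 0.21 from 3 to 24 h and 0.20 from 6 to 24 h for Lypla2, which releases fatty acids from lysophospholipids.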

How the results depend on the processing

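With the test against a 1.5-fold change, 0 members were called in vehicle livers at 6, 9 or 24 h against untreated or at 9 h against 3 h, 1 at 9 h (Chka) and 0 at 24 h between APAP and vehicle. Of the other pathway genes, 3, 1, 1 and 0 were then called at 3, 6, 9 and 24 h. With an adjusted p under 0.01, Chka was no longer called in vehicle livers at 6 h (0 members). At 24 h with APAP, 7 other pathway genes were then called in place of 10. With array weights, 6, 7, 7 and 9 other pathway genes were called at 3, 6, 9 and 24 h. With re-centred arrays only 1 member was called at 9 h with APAP. With single arrays left out, members called ranged from 0 to 1 (vehicle 6 h), 1 to 2 (vehicle 24 h), 1 to 2 (APAP 9 h) and 0 to 2 (APAP 24 h). Without APAP 9 h replicate 1, 6 other pathway genes were called at 9 h, the range being 6 to 10, with ranges of 6 to 6, 5 to 8 and 9 to 14 at 3, 6 and 24 h. The member called at 24 h with APAP was Chka in place of Chpt1 with array weights, without APAP 24 h replicate 1, and without APAP 24 h replicates 1 and 3, the last chosen after seeing the data.

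In deviations from the group means over all genes, same-numbered mice correlated above 0.1 in at most 3 of 5 pairs in any comparison. Nothing in the labels ties the numbers to pairs. The highest correlations were 0.40 and 0.31, between APAP and vehicle at 3 and 6 h. In each of these comparisons only 1 pair was above 0.1, and the lowest correlations were -0.27 and -0.17. Between vehicle 24 h and 9 h all 5 correlations were positive (0.03 to 0.16), and 4 of 5 mice correlated best with their own number, which is a hint from the data and not from the design. With the replicate block, 0, 1, 1 and 2 members were called in vehicle livers, 1 and 1 between vehicle groups, and 1, 1, 2 and 1 with APAP, and 6, 6, 10 and 10 other pathway genes, the same genes as without it. No called change reversed under any alternative. Causes of these changes were not tested, and the arrays give no measure of depth.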
